A study of Mus musculus with 6 samples.

Results

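The genes described here encode the enzymes with which the liver breaks down amino acids and turns their nitrogen into urea. A list of 50 such genes was matched to the array by gene symbol, and 45 of them were measured by a probe set annotated with that symbol alone, among 19938 genes tested. Ass1, the argininosuccinate synthase, had 2 probe sets that each carry several symbols and was left out, and Sds, Sdsl, Gls2 and Mut are not analysed here. Where a gene had more than 1 probe set, the brightest over the 6 arrays was used.

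The liver RNA came from C57BL/6 mice, an inbred laboratory strain, that had free access to a regular diet (RD) or a high fat diet (HFD) for 2 days. Each diet had 3 biological replicates with an array each, from liver frozen at harvest. All 6 titles also hold an unexplained "NI", and the animals' age and sex and the make-up of the diets are not given either. The values are log2 signals as deposited by the authors. The number of arrays limits the precision, and array medians lay between 7.06 and 7.11. The tissue label was checked against 11 hepatocyte genes, such as Alb and Apob, whose mean log2 level was 13.99 to 14.03 on the RD arrays and 13.96 to 14.02 on the HFD arrays.

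Amino acids that exceed the need for protein synthesis are stripped of their nitrogen, mostly by transaminases that pass it to glutamate. Ammonia is then fixed as carbamoyl phosphate in hepatocyte mitochondria and leaves the urea cycle as urea, while the carbon skeletons feed gluconeogenesis, ketone bodies or the citric acid cycle. Several of these enzymes are known to respond to protein intake, glucagon and glucocorticoids, and the urea cycle enzymes lie mainly in the periportal part of the liver lobule.

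After 2 days of HFD most of these genes had a lower value than on RD, by small amounts. In a limma fit over all genes, 12 of the 45 fell at a Benjamini-Hochberg adjusted p under 0.05, against 2.24% of all genes that were lower by the same rule. They were Agxt, Ido2, Kynu, Prodh2, Bckdhb, Asl, Prodh, Gcdh, Pcca, Gcsh, Ftcd and Kmo. Csad and Ddc rose, and 2 of 45 compares with 3.11% of all genes that were higher. The fold was small, and only Agxt and Ddc reached 1.5-fold. The median log2 difference (HFD minus RD) was -0.17 over the 45 genes and -0.0029 over all genes tested. A negative difference was found for 41 of the 45 genes, or for 39 when arrays were centred on their median or on the hepatocyte genes, because the values of Hal and Glud1, next to 0, then turned positive.

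The separation of the diets went further than the calls. In 35 of the 45 genes the 3 HFD values all lay below the 3 RD values, as they did in 11.7% of all genes. In 2 they all lay above, against 14.0% of all genes, and in 8 the diets overlapped. The shift was similar on each HFD array. The median over the 45 genes of the log2 value minus the gene's RD mean was -0.17, -0.21 and -0.14 on HFD replicates 1, 2 and 3, and stayed between -0.04 and 0.04 on the RD arrays. Below the gene's lowest RD value lay 37, 38 and 36 of the 45 genes on HFD replicates 1, 2 and 3. Over all 19938 genes the counts were 6595, 6104 and 5159.

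**Figure D1:**
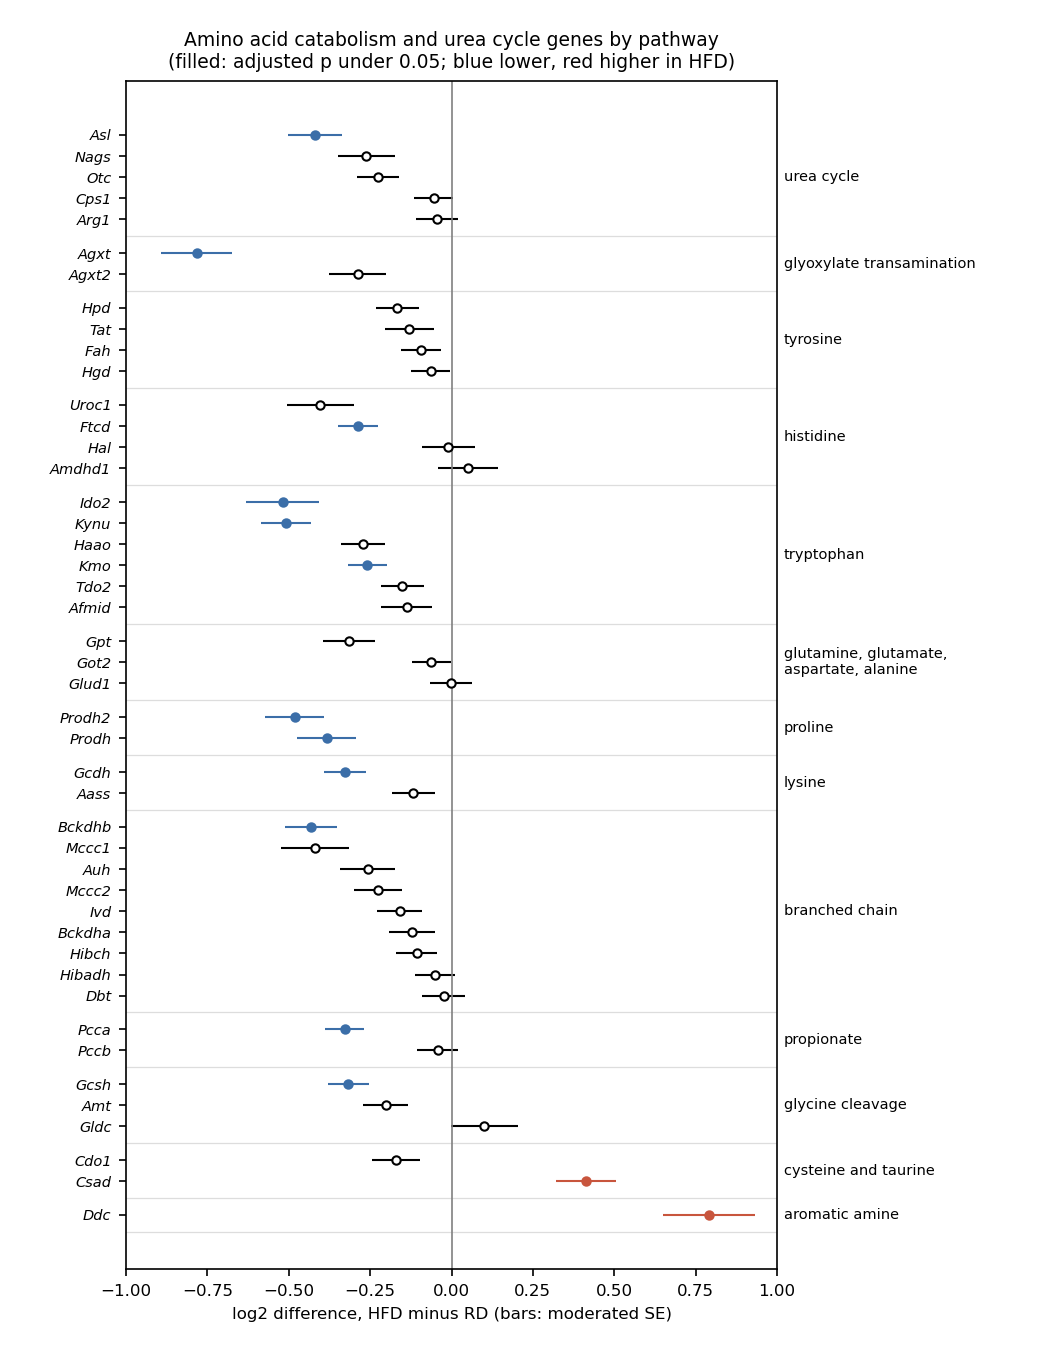
Log2 difference (HFD minus RD, with the moderated standard error) of the 45 genes measured, grouped by the amino acid they handle. Filled points passed an adjusted p of 0.05; 41 points lie left of 0, the lowest is Agxt at -0.78 and the highest Ddc at 0.79.

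The calls rest on few arrays. With 1 array left out, 2 to 4 of the 45 genes fell and 0 or 1 rose. Agxt and Kynu passed in each of these 6 fits, Ddc in 4, Prodh2 in 2, and Asl, Ido2 and Bckdhb in 1. The remaining 7 called genes, Ftcd, Kmo, Prodh, Gcdh, Pcca, Gcsh and Csad, passed in none. Directions did not depend on 1 array in any called gene, which follows from the diets not overlapping in these genes.

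The promoters of 3 called genes are shown because they had the smallest p among the called genes with an entry in the RefSeq promoter table (build GRCm38.p6), which holds 37 of the 45 genes. Agxt and Pcca fell and Ddc rose; Kynu has no entry. Each window runs from 250 bases before to 50 bases after the annotated start, and capitals mark matches to the motifs searched. Agxt lies at chr1:93134990-93135289 on the plus strand, Pcca at chr14:122484115-122484414 on the plus strand and Ddc at chr11:11898095-11898394 on the minus strand. Pcca and Ddc have 2 starts each in the table, and the most upstream is shown.
Agxt: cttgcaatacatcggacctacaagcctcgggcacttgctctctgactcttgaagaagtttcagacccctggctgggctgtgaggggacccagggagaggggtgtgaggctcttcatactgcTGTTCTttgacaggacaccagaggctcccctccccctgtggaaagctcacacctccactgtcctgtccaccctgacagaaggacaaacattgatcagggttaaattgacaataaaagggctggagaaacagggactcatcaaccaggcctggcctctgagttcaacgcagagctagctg
Pcca: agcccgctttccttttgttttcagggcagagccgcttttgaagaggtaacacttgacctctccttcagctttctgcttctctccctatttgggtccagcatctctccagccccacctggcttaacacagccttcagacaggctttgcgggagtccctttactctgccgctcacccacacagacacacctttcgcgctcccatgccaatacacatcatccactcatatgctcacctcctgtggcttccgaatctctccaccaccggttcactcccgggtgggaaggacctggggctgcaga
Ddc: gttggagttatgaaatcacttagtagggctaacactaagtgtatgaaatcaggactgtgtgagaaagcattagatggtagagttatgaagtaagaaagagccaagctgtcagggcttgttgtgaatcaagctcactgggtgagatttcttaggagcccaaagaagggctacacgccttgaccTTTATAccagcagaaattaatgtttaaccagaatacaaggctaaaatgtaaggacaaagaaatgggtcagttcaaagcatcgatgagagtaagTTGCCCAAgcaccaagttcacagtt

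Motifs were searched on both strands: TATAAA, the cAMP response element TGACGTCA and its core TGACG, which overlaps it, TTGCNNCAA and TTGCNNAA for C/EBP factors, TGTTCT, one arm of the glucocorticoid element, and TGACCTTTG and CAAAGTCCA as forms of a nuclear receptor repeat. The Agxt window held 1 match, TGTTCT at position -129, and the Pcca window none. The Ddc window held TATAAA on the opposite strand at -68 and TTGCNNAA at position 25 after the start. Counted per gene over all its starts in the table, TGTTCT was present in 3 of the 9 falling genes with an entry (Agxt, Bckdhb and Kmo), in 21.3% of all 27025 genes and in 19.0% of all 32851 windows. TTGCNNAA was present in 2 of the 9 (Gcdh and Prodh2), in 12.2% of all genes and in 10.8% of all windows. TATAAA occurred in 1 of the 9 (Ftcd), against 15.7% of genes and 13.6% of windows. TGACG occurred in 2 (Ftcd and Pcca, the latter at its other start), against 23.0% of genes and 20.8% of windows. The other 4 motifs occurred in none of the 9, in 0.544% to 2.38% of all genes and in 0.475% to 2.08% of all windows. These matches describe the letters of the windows and nothing was tested with them.

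Among the urea cycle genes, 1 of 5 measured fell and all 5 had a negative difference, with a median of -0.23. Asl splits argininosuccinate into arginine and fumarate. Its log2 values were 12.41, 12.55 and 12.47 on the RD arrays and 11.99, 11.97 and 12.20 on the HFD arrays. All HFD values lay below all RD values, with HFD replicate 3 closest to RD. The difference was -0.42 ± 0.08 (moderated SE, as for all differences of single genes), a 1.34-fold fall with an adjusted p of 0.027. It passed only without HFD replicate 3 when 1 array was removed (adjusted p up to 0.099).

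The other urea cycle genes did not pass. Otc, which makes citrulline from ornithine and carbamoyl phosphate, differed by -0.23 ± 0.06 (adjusted p = 0.087), from 12.83 ± 0.04 to 12.60 ± 0.05 (SD, n = 3 each). Nags, whose product N-acetylglutamate activates carbamoyl phosphate synthetase, differed by -0.26 ± 0.09 (adjusted p = 0.142). In both genes the diets did not overlap. The synthetase itself, Cps1, stood at 14.07, 14.12 and 14.08 on RD and 14.05, 14.04 and 14.02 on HFD, a difference of -0.054 ± 0.060. Arg1, the arginase that releases urea, differed by -0.043 ± 0.064 and its diets overlapped.

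Agxt had the lowest difference of the 45 genes. It encodes the alanine-glyoxylate aminotransferase, which removes glyoxylate and whose loss causes oxalate stones. Its log2 values were 11.01, 11.23 and 10.90 on RD and 10.11, 10.42 and 10.25 on HFD. The gap between the diets was wider than the range within either. The fall was 1.72-fold, -0.78 ± 0.11 on the log2 scale (adjusted p = 0.0067), and it held whichever array was removed (adjusted p up to 0.030). Agxt2, a mitochondrial aminotransferase that also takes glyoxylate, went from 11.38 ± 0.10 to 11.10 ± 0.14 (SD, n = 3 each). Its diets did not overlap, but the difference of -0.29 ± 0.09 did not pass (adjusted p = 0.112).

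Of the 6 tryptophan genes 3 fell, or 1 to 2 with 1 array removed (2 without RD replicate 3), and all 6 had a negative difference, with a median of -0.26. Tdo2 and Ido2 open the indole ring, Afmid releases kynurenine, and Kmo, Kynu and Haao take it towards quinolinate and NAD. Kynu, the kynureninase, read 12.87, 12.98 and 12.97 on RD and 12.31, 12.45 and 12.52 on HFD. The diets were clearly apart, and HFD replicate 1 was lowest. The fall of Kynu was 1.42-fold, -0.51 ± 0.08 (adjusted p = 0.0096), and it passed whichever array was removed (adjusted p up to 0.046).

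Ido2, an indoleamine dioxygenase, read 11.60, 11.94 and 11.49 on RD and 11.12, 11.22 and 11.14 on HFD. The RD values spread more than the HFD values, and RD replicate 2 was the highest. Its fall of 1.43-fold, -0.52 ± 0.11 (adjusted p = 0.036), passed only without RD replicate 3 when 1 array was removed (adjusted p up to 0.103). Kmo, the kynurenine hydroxylase, read 12.99, 13.01 and 13.04 on RD and 12.77, 12.76 and 12.73 on HFD. Both groups were tight. Its difference of -0.26 ± 0.06 (adjusted p = 0.047) was lost whichever array was removed (adjusted p 0.109 to 0.126).

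The other tryptophan genes differed less. Haao, which opens the ring of 3-hydroxyanthranilate, went from 13.17 ± 0.08 to 12.90 ± 0.02 with no overlap (-0.27 ± 0.07, adjusted p = 0.057). Tdo2, the main tryptophan dioxygenase of liver, differed by -0.15 ± 0.07 (adjusted p = 0.265), again with no overlap. Afmid differed by -0.14 ± 0.08, and its diets overlapped.

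None of the 4 tyrosine genes passed in limma, and 1 had an unadjusted p under 0.05. In all 4, nevertheless, the HFD values lay below the RD values. Hpd, the hydroxyphenylpyruvate dioxygenase, read 13.87, 14.00 and 13.94 on RD and 13.75, 13.75 and 13.81 on HFD, a difference of -0.17 ± 0.07 (adjusted p = 0.208). Tat, the transaminase that starts the route, differed by -0.13 ± 0.07, Fah, the enzyme of its last step, by -0.094 ± 0.061, and Hgd, the homogentisate dioxygenase between them, by -0.064 ± 0.060.

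Histidine genes split. Ftcd, which moves the formimino group of the histidine product onto tetrahydrofolate, read 12.13, 12.22 and 12.16 on RD and 11.88, 11.90 and 11.87 on HFD. The HFD values nearly coincided, below every RD value. Ftcd differed by -0.29 ± 0.06 (adjusted p = 0.037), a call lost whichever array was removed (adjusted p 0.085 to 0.120). Uroc1, the urocanase, differed by -0.40 ± 0.10 and did not pass (adjusted p = 0.065), and its diets did not overlap. Hal, the ammonia lyase of the opening step, and Amdhd1, the imidazolonepropionase, differed by -0.0093 ± 0.081 and 0.052 ± 0.092, and in both the diets overlapped.

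Both proline genes fell, with differences of -0.38 and -0.48. Prodh2, which oxidises hydroxyproline, read 10.96, 11.18 and 11.19 on RD and 10.54, 10.59 and 10.75 on HFD. The highest HFD value, that of replicate 3, stayed under the lowest RD value, that of replicate 1. Prodh2 differed by -0.48 ± 0.09 (adjusted p = 0.023) and passed only without RD replicate 1 or HFD replicate 3 when 1 array was removed (adjusted p up to 0.087). Prodh, the proline dehydrogenase, read 11.42, 11.63 and 11.35 on RD and 11.10, 10.98 and 11.17 on HFD. The diets did not overlap. Its difference of -0.38 ± 0.09 lay just inside the threshold (adjusted p = 0.0499) and was lost whichever array was removed (adjusted p 0.062 to 0.141).

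Gpt and Got2, the aminotransferases of this group, and glutamate dehydrogenase did not pass, while Agxt above did. Gpt, the cytosolic alanine aminotransferase, read 10.29, 10.47 and 10.38 on RD and 10.12, 9.95 and 10.13 on HFD. Its diets were apart, and the difference was -0.31 ± 0.08 (adjusted p = 0.062). Got2, the mitochondrial aspartate aminotransferase, differed by -0.062 ± 0.061. Glud1, which releases ammonia from glutamate, differed by -0.0019 ± 0.064 and its diets overlapped.

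Of the lysine genes, Gcdh fell. It encodes glutaryl-CoA dehydrogenase, which serves lysine and tryptophan, and read 12.76, 12.66 and 12.70 on RD and 12.40, 12.33 and 12.41 on HFD. Every HFD value lay well under the RD values. The difference of -0.33 ± 0.06 (adjusted p = 0.027) was lost whichever array was removed (adjusted p 0.059 to 0.101). Aass, the bifunctional enzyme that starts lysine breakdown in mitochondria, differed by -0.12 ± 0.07 (adjusted p = 0.383).

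Leucine, isoleucine and valine share the branched chain keto acid dehydrogenase, and 1 of the 9 genes of their breakdown fell. All 9 had a negative difference, with a median of -0.16, and in 8 the diets did not overlap. Bckdhb, the beta chain of the decarboxylase of that complex, read 11.19, 11.16 and 11.37 on RD and 10.87, 10.84 and 10.72 on HFD. HFD replicate 3 was lowest and RD replicate 3 highest. Bckdhb differed by -0.43 ± 0.08 (adjusted p = 0.022) and passed only without HFD replicate 1 when 1 array was removed (adjusted p up to 0.067). Its partner Bckdha, the alpha chain, differed by -0.12 ± 0.07 (adjusted p = 0.402), and Dbt, the transacylase core, by -0.024 ± 0.067.

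In the leucine branch no gene passed. Mccc1, the biotin-bearing subunit of methylcrotonyl-CoA carboxylase, went from 9.62 ± 0.07 to 9.20 ± 0.20 (adjusted p = 0.058), with HFD replicate 3 at 8.96 below the others. Its partner Mccc2 differed by -0.23 ± 0.07 and the hydratase Auh by -0.26 ± 0.08. Ivd, the isovaleryl-CoA dehydrogenase, differed by -0.16 ± 0.07. The valine enzymes Hibch and Hibadh differed by -0.11 ± 0.06 and -0.051 ± 0.061.

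Propionyl-CoA carboxylase, which takes the propionyl-CoA of isoleucine, valine, methionine and threonine, showed a fall in 1 of its 2 subunits. Pcca, the biotin-bearing alpha subunit, read 11.05, 11.09 and 11.06 on RD and 10.72, 10.75 and 10.74 on HFD. Replicates of each diet nearly coincided. The difference of -0.33 ± 0.06 (adjusted p = 0.021) was lost whichever array was removed, though narrowly (adjusted p 0.052 to 0.076). Pccb, the beta subunit, read 10.98, 10.96 and 11.05 on RD and 10.98, 10.93 and 10.96 on HFD, and the diets overlapped (-0.043 ± 0.063).

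The glycine cleavage system splits glycine into ammonia, carbon dioxide and a folate-bound carbon. Gcsh, its lipoyl carrier protein, read 8.81, 8.70 and 8.75 on RD and 8.43, 8.44 and 8.44 on HFD. The HFD arrays agreed closely and lay below every RD array. Gcsh differed by -0.32 ± 0.06 (adjusted p = 0.028), a call lost whichever array was removed (adjusted p 0.065 to 0.106). Amt, the aminomethyltransferase, differed by -0.20 ± 0.07 with no overlap (adjusted p = 0.149). Gldc, the glycine decarboxylase, differed by 0.10 ± 0.10 and its diets overlapped.

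Csad rose. It encodes cysteine sulfinate decarboxylase, the step of taurine synthesis that follows the cysteine dioxygenase Cdo1, and taurine is used to conjugate bile acids. Its log2 values were 11.32, 11.07 and 11.29 on RD and 11.64, 11.76 and 11.53 on HFD. All HFD values lay above all RD values. The rise was 1.33-fold, 0.41 ± 0.09 (adjusted p = 0.041), and was lost whichever array was removed (adjusted p 0.054 to 0.120) and after quantile normalization. Cdo1 read 13.15, 13.29 and 13.08 on RD and lay between 12.98 and 13.02 on HFD, a difference of -0.17 ± 0.07 that did not pass (adjusted p = 0.250).

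Ddc had the highest difference of the 45 genes. It encodes the aromatic amino acid decarboxylase that makes dopamine and serotonin from their amino acid precursors. Its log2 values were 9.62, 9.54 and 9.77 on RD and 10.21, 10.78 and 10.32 on HFD. HFD replicate 2 stood above the other arrays, and the diets did not overlap. The rise was 1.73-fold, 0.79 ± 0.14 (adjusted p = 0.020), and did not pass once RD replicate 1 or 2 was removed (adjusted p = 0.077 and 0.079).

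**Figure D2:**
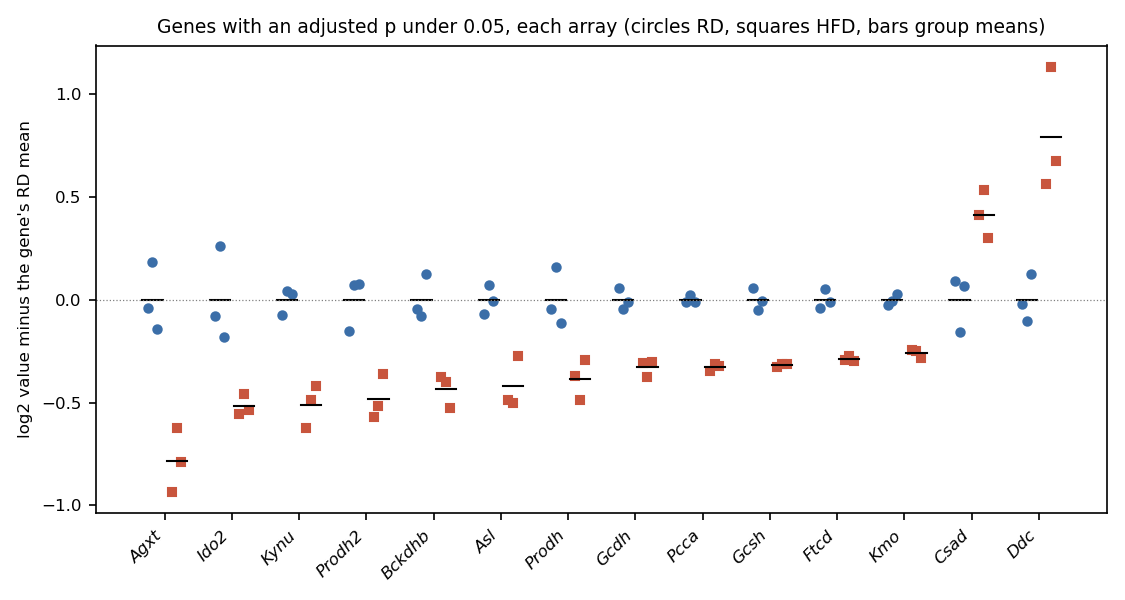
Log2 value of each array minus the gene's RD mean for the 14 genes with an adjusted p under 0.05, with circles for RD, squares for HFD and bars for group means. In each gene the 3 HFD values lie to one side of the 3 RD values, and HFD replicate 2 is the highest point of Ddc.

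Partner genes were set against each other by their ratio within each array, for 5 pairs chosen after their values were seen. The log2 ratio of Pcca to Pccb changed by -0.29 ± 0.04 (unmoderated SE, n = 3 each, as for the other ratios). It went from 0.07, 0.12 and 0.0047 on RD to -0.26, -0.18 and -0.22 on HFD. That of Bckdhb to Bckdha changed by -0.31 ± 0.10, that of Gcsh to Gldc by -0.42 ± 0.15 and that of Csad to Cdo1 by 0.58 ± 0.16. In these 4 pairs the diets did not overlap. For Mccc1 to Mccc2 the change was -0.19 ± 0.12 with overlapping diets. As the pairs were chosen for their values, these ratios are a description with no test.

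Other enzymes of amino acid breakdown were measured by 38 genes, of which 9 fell and 1 rose, against 2.24% and 3.11% of all genes. Their median was -0.15, with 32 of them below 0. Their HFD values lay below all RD values in 25 genes, as they did in 11.7% of all genes. Got1, the cytosolic aspartate aminotransferase, read 13.22, 13.56 and 13.45 on RD and 12.43, 12.34 and 12.48 on HFD, a 1.99-fold fall (SE 0.095 on the log2 scale, adjusted p = 0.0012). Qdpr, which regenerates the tetrahydrobiopterin used to hydroxylate phenylalanine, differed by -0.65 ± 0.11 (adjusted p = 0.016). Both passed whichever array was removed. Gpt2, the mitochondrial alanine aminotransferase, differed by -0.39 ± 0.07 (adjusted p = 0.017) and passed only without HFD replicate 3 when 1 array was removed (adjusted p up to 0.068). Hsd17b10, which serves isoleucine breakdown, differed by -0.41 ± 0.07 (adjusted p = 0.015) and did not pass once RD replicate 2 or HFD replicate 2 was removed (adjusted p = 0.062 and 0.052). The riser, named after its values were seen, was the arginase Arg2 (0.36 ± 0.08). Arg2 was dim, with means of 5.88 on RD and 6.24 on HFD, below the array medians. The falls numbered 4, 3 and 4 with RD replicate 1, 2 or 3 removed and 3, 4 and 6 with HFD replicate 1, 2 or 3 removed, and Arg2 passed only without RD replicate 3.

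Genes of amino acid synthesis were mostly higher. Of 6 measured, 4 rose and 1 fell, against 3.11% and 2.24% of all genes, with a median of 0.67. Asns, the asparagine synthetase, read 7.36, 7.39 and 7.93 on RD and 8.52, 9.26 and 9.08 on HFD (1.39 ± 0.21, adjusted p = 0.0096). Psat1, the phosphoserine aminotransferase, rose by 1.14 ± 0.17 (adjusted p = 0.0088) and Aldh18a1, which starts proline synthesis, by 0.89 ± 0.12 (adjusted p = 0.0049). These 3 passed whichever array was removed. Psat1 and Aldh18a1 were dim, with RD means of 6.96 and 7.03, and over all arrays they lay below the median gene. With every row of the table in the fit Asns and Psat1 lost their calls, and in an unmoderated linear model all 3 did. The remaining riser Psph, the phosphoserine phosphatase (0.44 ± 0.10, named after its values were seen), passed only without HFD replicate 1 when 1 array was removed. Glul, the glutamine synthetase of pericentral hepatocytes, fell by 0.33 on the log2 scale (adjusted p = 0.036), a call lost whichever array was removed.

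Among 13 regulators of amino acid breakdown, 2 fell and 0 rose in limma (0 rose at an unadjusted p under 0.05). Over all genes 2.24% fell and 3.11% rose. Cebpa, a C/EBP transcription factor of hepatocytes, read 11.91, 11.83 and 11.72 on RD and 11.05, 11.12 and 10.79 on HFD. The diets were far apart, with a difference of -0.83 ± 0.10 (adjusted p = 0.0033) that held whichever array was removed. Ppara, the receptor of the fasting response, differed by -0.30 ± 0.07 (adjusted p = 0.039) and was lost whichever array was removed. The factor Onecut1 differed by -1.46 ± 0.41 with a wide spread within each diet (adjusted p = 0.087), and the coactivator Ppargc1a by -0.23 ± 0.13. The median over the 13 was 0.0015, with 7 differences above 0 and overlapping diets in 10 genes. Among these, named after their values were seen, were the glucagon receptor Gcgr (-0.092 ± 0.109), the glucocorticoid receptor Nr3c1 (0.012 ± 0.076) and Klf15 (0.0050 ± 0.074), a factor of amino acid breakdown.

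**Figure D3:**
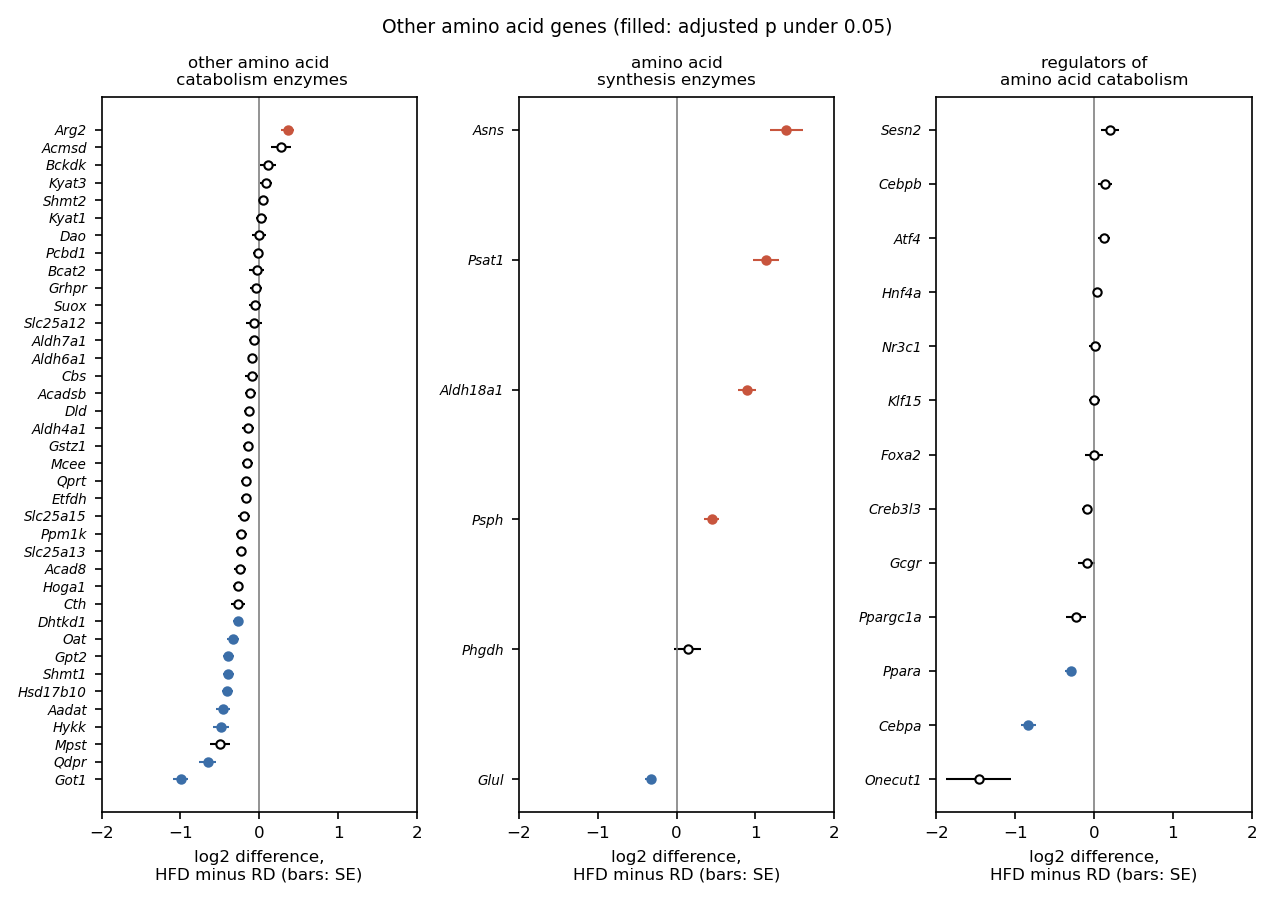
Log2 difference (HFD minus RD, with the moderated standard error) of 38 other enzymes of amino acid breakdown, 6 synthesis enzymes and 13 regulators; filled points passed an adjusted p of 0.05. Got1 is the lowest of the breakdown enzymes and Asns, at 1.39, the highest of the synthesis enzymes.

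In bulk liver, fewer hepatocytes and less RNA per hepatocyte cannot be told apart. Of 11 hepatocyte genes none passed in limma (2 had an unadjusted p under 0.05) and their median difference was -0.0081. Their values ran from 13.43 (Fabp1) to 14.44 (Alb), near the highest value of the whole table, 14.60. Whether differences are compressed at such levels was not tested. Hpx differed by 0.16 ± 0.06 and Fabp1 by -0.18 ± 0.08. With each array centred on their mean, 9 of the 45 genes fell and 2 rose, against 371 and 672 of all 19938 genes. Of 10 markers of Kupffer cells, the resident macrophages, 6 rose, against 3.11% of all genes. Their mean log2 level was 9.80 to 9.88 on RD and 10.17 to 10.70 on HFD, highest on HFD replicate 1. Cd5l rose by 0.85 ± 0.12, Timd4 by 0.67 ± 0.11, C1qb by 0.64 ± 0.13 and Adgre1 by 0.82 ± 0.17. The count was 1, 1 and 2 with RD replicate 1, 2 or 3 removed and 5, 7 and 2 with HFD replicate 1, 2 or 3 removed. All 5 markers of bile duct cells rose, with means of 6.85 to 6.93 on RD and 7.26 to 7.44 on HFD, but with 1 array left out 0 (RD replicate 1 or HFD replicate 1) or 1 (each other array) passed. Krt19 rose by 0.70 ± 0.14, Epcam by 0.54 ± 0.10, Sox9 by 0.29 ± 0.06, Krt7 by 0.33 ± 0.07 and the remaining marker Cftr by 0.29 ± 0.07. Cftr and Epcam were dim, with RD means of 4.50 and 6.16, below the array medians. The part of these cells in the falls and rises of the amino acid genes was not tested.

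Markers of endothelial, stellate and lymphoid cells, neutrophils, red cells and pancreatic acini gave no call among 7, 7, 7, 5, 2 and 4 genes. At an unadjusted p under 0.05 there was 1 endothelial gene, Cdh5 (0.26 ± 0.08), 1 acinar gene, Prss2 (-0.21 ± 0.07), and none of the others. The gene of smallest p was Dcn in the stellate list (0.15 ± 0.07), Cd3e in the lymphoid list (0.23 ± 0.12), S100a8 among neutrophil markers (-0.21 ± 0.09) and Alas2 among red cell markers (-0.18 ± 0.10). S100a8 went against its list, in which the other 4 markers had positive differences and the median was 0.15.

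Markers of both zones of the lobule included falls, and 2.24% of all genes fell. Of 6 periportal markers 2 fell, G6pc, the glucose phosphatase (-0.65 ± 0.09), and Fbp1, the fructose bisphosphatase (-0.29 ± 0.06), and their median was -0.11. Hsd17b13, a lipid droplet protein, differed by 0.14 ± 0.06 with all HFD values above all RD values (adjusted p = 0.252), and Gpx3, a glutathione peroxidase, by -0.19 ± 0.12 with overlap. The remaining markers Cyp2f2 and Pck1 differed by -0.031 ± 0.060 and -0.019 ± 0.069. Fbp1 was lost whichever array was removed (adjusted p 0.067 to 0.095). Of 9 pericentral markers 4 fell, with a median of -0.33, among them Rhbg, an ammonium transporter (-0.95 ± 0.15), Tbx3 (-0.73 ± 0.13) and Oat, the ornithine aminotransferase (-0.33 ± 0.08). Tbx3 was lost without RD replicate 2 or HFD replicate 1, and Oat passed only without HFD replicate 3. Of the 9 pericentral markers 8 had a negative difference. Of the markers that did not pass, named after their values were seen, Cyp1a2, a cytochrome P450, differed by 0.16 ± 0.06 with all HFD values above all RD values (adjusted p = 0.193), and Cyp2e1, another, by -0.043 ± 0.059. The remaining markers Lgr5, Axin2 and Slc1a2 differed by -0.42 ± 0.14, -0.21 ± 0.09 and -0.18 ± 0.07, and only in Slc1a2 did the diets not overlap. The count of pericentral falls was 2, 1 and 3 with RD replicate 1, 2 or 3 removed and 1, 2 and 3 with HFD replicate 1, 2 or 3 removed. Glul and Oat belong to this list and also to a list above.

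**Figure D4:**
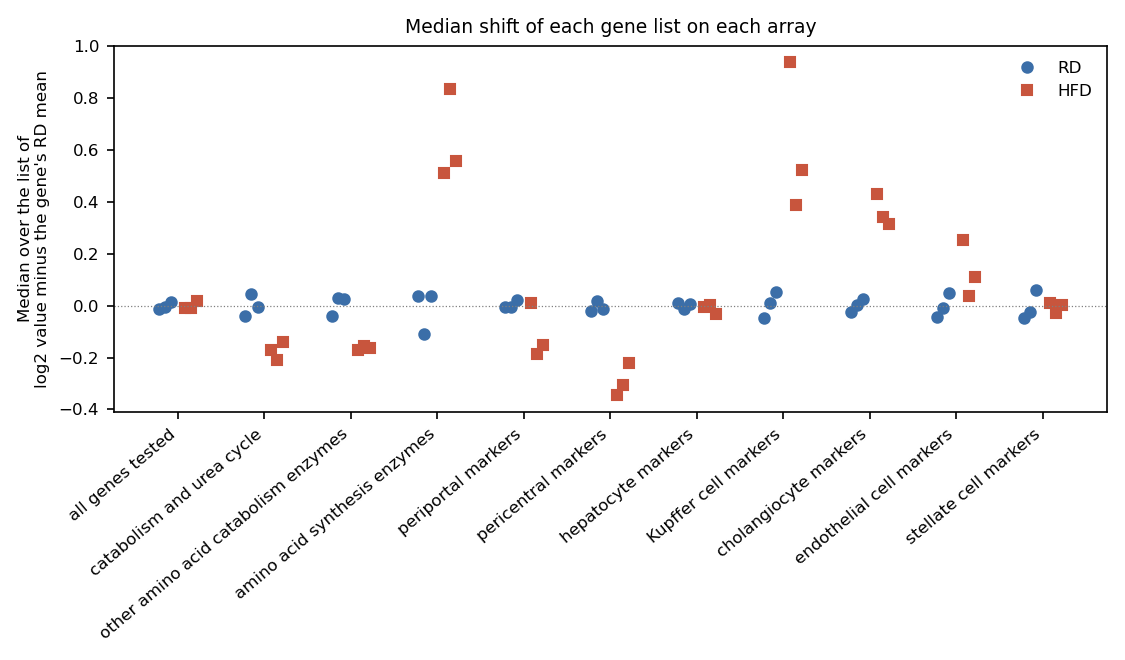
Median over each gene list of the log2 value minus the gene's RD mean, per array, with circles for RD and squares for HFD. The amino acid breakdown genes lie between -0.21 and -0.14 on the HFD arrays, the hepatocyte genes between -0.03 and 0.00039, and the Kupffer cell markers between 0.39 and 0.94.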

How the data were processed

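Total RNA of mouse liver was labelled with a terminal labelling kit for GeneChip arrays (per the labels' protocols) and measured on 1 array per sample. The deposited table holds log2 values of 35512 probe sets; the labels do not say how the authors summarised and normalized them, and base 2 was inferred from the range of the values. They were used as deposited, with all sample columns. Gene names came from GEO's annotation of the platform, which can be old: 21789 carried 1 symbol, 1621 several and 12102 none listed. Detection calls were not used here, so values near background were not marked; all 45 genes lay at or above the median gene.

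Genes were fitted in limma 3.58.1 (R 4.3.3; lmFit, eBayes, diet alone, two-sided, Benjamini-Hochberg adjustment over all 19938 genes, called under 0.05). Nothing beyond "biological replicates" says how the livers were taken, so p-values measure the spread between these samples, moderated by the spread of all genes. The ± of a gene's difference is an SE moderated in the same way, and the ± of a diet mean is an SD. In tight genes the moderated SE is the larger: Cps1 had SDs of 0.027 on RD and 0.013 on HFD and an SE of 0.060. The ratios of partner genes have unmoderated SEs. No test was made over a list. The members and lists were chosen with earlier results of these data known. Every called gene of the 45 and the gene of smallest p in each pathway are named with their values, as are up to 4 genes of smallest p in each other list (1 or 2 in cell type lists without a call); genes beyond this rule are marked as named after their values were seen or as the remaining ones of a list. The fit was tested on simulated data. Alternatives changed the normalization, the centring, the filter on dim genes, the probe set rule, the model, the call rule and the arrays used.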

Additional observations from a re-analysis of the deposited data

How the results depend on the processing

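The median difference of the 45 genes stayed below 0 in all 16 alternatives, from -0.20 to -0.15, and no called gene changed direction. With the brighter genes only, the mean of probe sets, every row, the intensity trend, the replicate block and the unmoderated model the median was -0.17. That is the main value, because these settings leave the differences of all or nearly all of the 45 genes unchanged. With 1 array left out, the directions of called genes were fixed, as their diets did not overlap. Counts of calls moved more. Without 1 array, 2 to 4 of the 45 genes fell and 0 to 1 rose, and over all genes 178 to 273 fell and 197 to 371 rose. With the replicate number as a block, 4 of the 45 fell and 1 rose (over all genes 245 and 318). The correlation across genes of the arrays' deviations from their diet means was -0.11, 0.000072 and 0.12 for equal numbers. For unequal numbers it ran from -0.12 to 0.13. Deviations from a mean of 3 arrays are bound to each other, so these values cannot decide on pairing. No pairing is stated, and the block is given here only. With every row of the table in the fit, 2 fell and 0 rose in limma (2 rose at an unadjusted p under 0.05), and over all rows 173 and 168. An unmoderated linear model gave 2 and 0 (2 rose at an unadjusted p under 0.05), and 58 and 41 over all genes. A fold of at least 1.5 besides the adjusted p left 1 and 1, and 151 and 208 over all genes. After quantile normalization 1 rose instead of 2. Agxt and Kynu kept their calls under every setting except the unmoderated model, and Kynu also failed the fold of 1.5. An intensity trend with a robust prior gave 18 falls, the 12 called genes among them, and 615 over all genes against 446. The causes of these shifts were not tested. By construction the fits without 1 array held fewer arrays, and the fit over every row held more rows. The number of arrays limits the precision; signal over background was not used here.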

Other observations

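In the main fit, calls were absent among the brightest of the 45 genes, a split made after the values were seen. Of 11 genes with a mean log2 level of at least 13, none passed in limma (3 had an unadjusted p under 0.05). They include Cps1, Tat, Hpd, Haao, Fah, Tdo2 and Got2. In 10 of the 11, all HFD values lay below all RD values. Of all 248 genes at that level, 63 had an unadjusted p under 0.05, and in 82 all HFD values lay below all RD values. The median difference of the 11 was -0.09. Other settings gave calls among them. Haao passed after quantile normalization, with the brighter genes only and with the intensity trend (lowest adjusted p 0.0082 in limma). Hpd passed with the intensity trend alone (adjusted p = 0.042). Of the 34 dimmer genes, 12 fell and 2 rose, with a median of -0.26. Over all genes the order was the other way, since 11.3% of 248 genes at or above that level were called and 5.28% of the 19690 below it.

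Got2 and Hibadh had a further probe set each. Those of Got2 differed alike, by -0.062 ± 0.059 and -0.059 ± 0.059, in the fit over every probe set. The dimmer probe set of Hibadh read 4.52 to 5.05 over all arrays, against 13.33 to 13.42 for the one used, and differed by 0.09 ± 0.15.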
